A study of Rattus norvegicus with 9 samples.

Results

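The genes described here are the zinc finger protein genes whose rat symbols begin with Zfp and a number. They were taken from the table of counts per gene as the protein-coding rows of that name, leaving out the Zfp36 family, which are RNA-binding proteins of another kind. Members were chosen by their level: a gene entered when its mean was at least 2 CPM (the count over the total count of its library, scaled) in one or more of the 3 groups of the study. Of 288 protein-coding Zfp genes, 263 met that limit and 25 did not, out of 22324 genes in the table. Because the rule used the level, the 72 members that reached it in NC and BNPMT but not in SEN had to be lower in SEN. Another 15 reached it in 1 group alone, which was NC for 3 of them, SEN for 10 and BNPMT for 2. The other 176 reached it in all 3 groups. Counts over the 263 members are therefore descriptions, and the same counts are given over all tested Zfp genes and over the 176.

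Most Zfp proteins carry arrays of C2H2 zinc fingers, short folds that hold a zinc ion and read DNA bases. Many of them also carry a KRAB domain, which recruits the corepressor Trim28 and, through it, the histone H3 lysine 9 methyltransferase Setdb1 and heterochromatin proteins. KRAB zinc finger genes have multiplied by tandem duplication, lie in clusters, and are known for silencing transposable elements. Zfp genes without KRAB are a mixed group that includes promoter activators, RNA-binding proteins, ubiquitin ligases and mitotic proteins.

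The 9 libraries hold poly(A) RNA from cultured primary cells of the rat nucleus pulposus, the soft centre of a disc of the spine, with the WT genotype in every group. NC is the group with no treatment label, SEN is labelled as senescence induced by doxorubicin, a DNA-damaging topoisomerase poison, and BNPMT is labelled as an intervention with BNPMT, which the labels do not spell out, in that senescence. Each group has 3 libraries. The protocol text, 200 nM doxorubicin over 24 h and then 6 days in new medium, stands word for word on the NC samples too, and NC is read here as the untreated control from its name and the study's design text. Nothing says whether the 3 libraries of a group are separate cultures or animals, so p-values measure only the spread between these libraries.

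Total counts were 31206834 to 41971877 per library. The damage-induced cell cycle inhibitor Cdkn1a was at 131 to 135 CPM in NC, against 1018 to 1109 in SEN, then 263 to 284 in BNPMT, which is the direction the labels imply. Of 13 nucleus pulposus markers, 11 were in the table and 7 reached 2 CPM in a group. Col2a1 and Acan were high, whereas Krt18, Krt19, Tbxt and Car12 were under 1 CPM in every group mean. SEN 1 and BNPMT 1 stood apart from the other libraries of their groups in how counts varied with gene length. Spearman's rho between gene length and the deviation of SEN 1 from the mean of its group was -0.41, against 0.26 and 0.23 for the other SEN libraries. It was 0.50 for BNPMT 1, against -0.42 and -0.31 for the other BNPMT libraries. The main counts are for that reason given also without these 2 libraries and with each library's length trend taken out.

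Promoter sequences are shown for the genes on which the results turn. They are the 250 bases before the gene start, 5′ to 3′ on the gene's strand, from RefSeq on GRCr8. Zfp711 and Zfp143 had 2 of the largest rises in SEN. Zfp870, Zfp472, Zfp763 and Zfp563 are neighbours on chromosome 7 that all fell. Capitals mark matches, on either strand, to the CCAAT box (CCAAT or ATTGG), the SP1 motif (GGGCGGG or CCCGCCC), the core of the YY1 motif (AAGATGG or CCATCTT) or the AP-1 motif (TGACTCA or TGAGTCA).
Zfp711, chrX:81838432-81838681, plus strand: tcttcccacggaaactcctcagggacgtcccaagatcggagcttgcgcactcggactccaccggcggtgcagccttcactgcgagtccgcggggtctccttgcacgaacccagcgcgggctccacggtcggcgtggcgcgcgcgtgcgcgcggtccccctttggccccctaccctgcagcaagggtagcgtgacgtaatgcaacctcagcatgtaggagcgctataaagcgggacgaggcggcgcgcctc
Zfp143, chr1:173543634-173543883, plus strand: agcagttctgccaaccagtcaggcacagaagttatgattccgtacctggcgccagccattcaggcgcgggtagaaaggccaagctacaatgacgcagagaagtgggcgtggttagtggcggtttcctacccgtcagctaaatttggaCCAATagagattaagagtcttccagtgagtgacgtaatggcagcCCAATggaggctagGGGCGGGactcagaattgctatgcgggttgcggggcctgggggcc
Zfp870, chr7:12654321-12654570, minus strand: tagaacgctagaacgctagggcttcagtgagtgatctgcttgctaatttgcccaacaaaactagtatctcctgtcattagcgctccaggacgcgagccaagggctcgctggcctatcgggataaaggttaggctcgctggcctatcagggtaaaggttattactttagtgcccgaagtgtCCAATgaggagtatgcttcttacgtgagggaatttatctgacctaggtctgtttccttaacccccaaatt
Zfp472, chr7:12724877-12725126, plus strand: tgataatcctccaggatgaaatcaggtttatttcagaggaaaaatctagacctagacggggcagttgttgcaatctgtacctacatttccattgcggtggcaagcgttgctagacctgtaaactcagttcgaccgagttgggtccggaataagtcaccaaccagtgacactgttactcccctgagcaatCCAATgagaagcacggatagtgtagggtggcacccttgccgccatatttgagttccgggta
Zfp763, chr7:12798222-12798471, minus strand: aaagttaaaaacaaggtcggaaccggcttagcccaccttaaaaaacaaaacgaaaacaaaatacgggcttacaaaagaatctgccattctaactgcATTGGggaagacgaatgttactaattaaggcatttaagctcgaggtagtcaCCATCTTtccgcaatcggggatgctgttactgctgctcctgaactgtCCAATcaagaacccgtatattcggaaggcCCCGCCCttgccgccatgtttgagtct
Zfp563, chr7:12898641-12898890, plus strand: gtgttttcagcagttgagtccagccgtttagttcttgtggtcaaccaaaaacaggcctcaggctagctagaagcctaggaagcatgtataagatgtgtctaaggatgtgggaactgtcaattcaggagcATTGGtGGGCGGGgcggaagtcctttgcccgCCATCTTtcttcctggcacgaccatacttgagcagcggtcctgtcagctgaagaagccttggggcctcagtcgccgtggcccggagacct
The 250 bases of Zfp711 held none of these 4 motifs and had 31 CpG dinucleotides, against a median of 13 over 14471 protein-coding genes with a promoter entry. The 4 neighbours each had a CCAAT box and 9 to 12 CpG, and the median over promoters of Zfp members was 12 CpG. A CCAAT box lay in 35.3% of those 14471 promoters, in 41.4% of the 215 promoters of Zfp members with an entry, and in 47.4% of 97 promoters of members with the KEGG label described below. The SP1 motif was in 36.5% of all promoters and 27.9% of those of members. The YY1 core was in 4.39% of all promoters and 8.37% of those of members, and the AP-1 motif in 3.61% and 3.72%. Members lower in SEN than in NC had a CCAAT box in 40.7% of promoters and the YY1 core in 8.28%. Members higher in SEN had them in 40.0% and 8.57%. These matches are descriptions of letters in a window.

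Levels of Zfp genes were low for their length. The median member had 1.88 FPKM (CPM per kilobase of gene) over the 9 libraries, against 7.96 FPKM for 11742 other protein-coding genes under the same 2 CPM limit. Highest on this scale, which allows genes to be compared, were Zfp207 at 61.7 FPKM and Zfp706 at 49.4 FPKM. Zfp207 encodes BuGZ, a protein of the mitotic spindle that binds Bub3. Next came Zfp330 at 26.9 FPKM, a nucleolar protein, then Zfp260 at 20.0 FPKM and the ubiquitin ligase gene Zfp91 at 18.9 FPKM. The deposited KEGG column puts 119 members in its map of herpes simplex virus 1 infection, a map in which KEGG lists a large number of KRAB zinc finger proteins. This label is used as a stand-in for the KRAB class. The labelled genes had a median of 1.31 FPKM and the 144 others 3.50 FPKM.

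In senescent cells Zfp transcripts made up a smaller share of all counts than in control cells, and the KEGG-labelled genes had the lowest sums relative to NC. The counts of all members summed to 5281 CPM ± 57.8 (SD, n = 3) in NC, 3646 ± 182 in SEN and 4564 ± 268 in BNPMT. For the labelled members the sum was 1510 CPM ± 31.1 in NC, 637 ± 31.4 in SEN and 1281 ± 94.7 in BNPMT. The members without the label summed to 3771 CPM ± 29.1 in NC, 3009 ± 151 in SEN and 3283 ± 174 in BNPMT. The sums of the SEN libraries lay below all other libraries in each case, most widely for the labelled genes. These sums are per total count, a scale on which the median log2 change of all genes in SEN against NC was -0.47. On it 58.1% of all genes had all SEN libraries below all NC libraries. On edgeR's TMM scale, with factors of 0.797 to 0.805 in SEN and 1.095 to 1.100 in NC, SEN values are higher relative to NC. Sums on the TMM scale were not made. The sums of all members and of those without the label thus do not by themselves set Zfp genes apart from the shift of all genes on this scale. In bulk RNA, fewer cells that express a gene and less of its RNA per cell cannot be told apart.

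**Figure D1:**
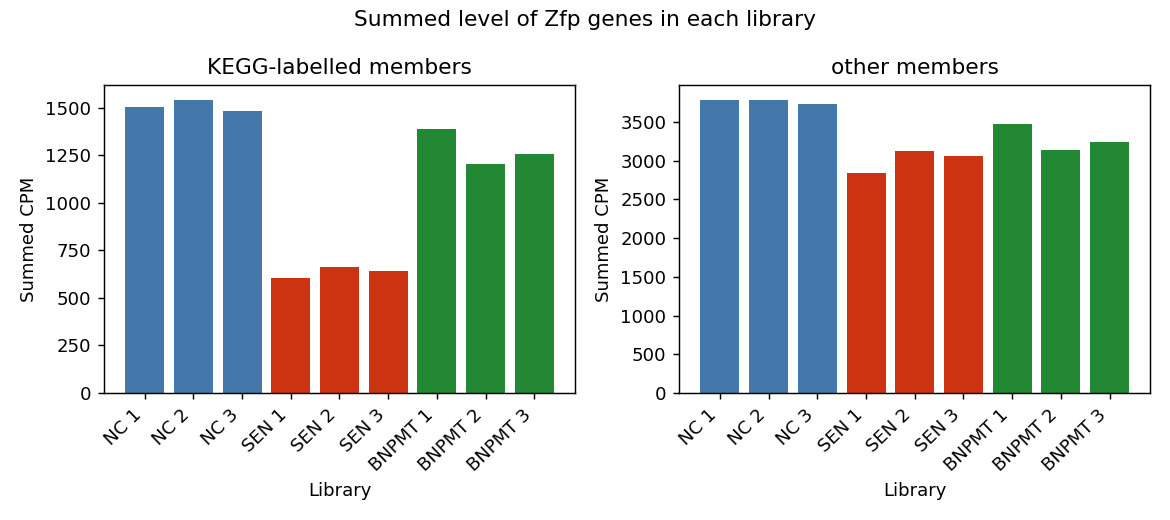
Summed CPM of the Zfp members in each of the 9 libraries, for the 119 members with the KEGG label (left) and the 144 without it (right), with 1 bar per library on axes that start at 0. The labelled members sum to 602 to 664 CPM in the SEN libraries, below the 1203 to 1386 CPM of the BNPMT libraries and the 1481 to 1543 CPM of the NC libraries.

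The first comparison, SEN against NC, asks how doxorubicin-induced senescence differs from control cells. Of the 263 members, 183 fell and 42 rose at an adjusted p below 0.05 in edgeR's quasi-likelihood test, and 38 did not pass. Over all 14956 genes tested, 38.5% fell and 37.6% rose, and among the 11742 other protein-coding genes under the same CPM limit 43.5% fell and 36.3% rose. The median log2 change of members was -0.86, beside -0.01 over all genes tested. Falls of more than 2-fold were found for 120 members and rises of that size for 18, against 14.6% and 20.0% of all genes. In CPM, 219 members had all SEN libraries below all NC libraries (58.1% of all genes did) and 29 had them above (25.3% of all genes).

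Falls outnumbered rises on each scale tried, by differing margins. With total counts alone as the scale, where the median of all genes was -0.47, 220 members fell and 26 rose, against 56.9% and 24.5% of all genes, and the members' median was -1.31. With the length trend of each library taken out, 196 fell and 41 rose, against 45.0% and 34.8% of all genes. Without SEN 1 and BNPMT 1, 185 fell and 48 rose, against 40.0% and 38.3% of all genes. Among the 176 members at the limit in all 3 groups, 109 fell and 33 rose (61.9% and 18.8%) with a median of -0.52. Of 10381 other protein-coding genes at the limit in all 3 groups, 43.6% fell and 35.9% rose, with a median of -0.07. Over all 277 Zfp genes that were tested, 192 fell and 44 rose with a median of -0.87.

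Of the 119 KEGG-labelled members, 101 fell and 10 rose, and their median log2 change was -1.35. Of the 144 without the label, 82 fell and 32 rose, and the median was -0.43. The difference between these classes was not tested. Both classes include members that were below the limit in SEN and had to be lower there. Of the 72 members kept by NC and BNPMT, 70 fell and 0 rose, with a median of -2.11. The classes were not compared among the 176 members at the limit in all 3 groups. They also differed in level, with NC library medians of 7.07 to 8.08 CPM (labelled) and 18.8 to 19.0 CPM (others). By the mean over the 9 libraries, which takes in SEN and so is not independent of a fall there, 83 of the 131 members below the median of 9.70 CPM were labelled, and 36 of the 132 at or above it. The separate parts of level and label were not tested.

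**Figure D2:**
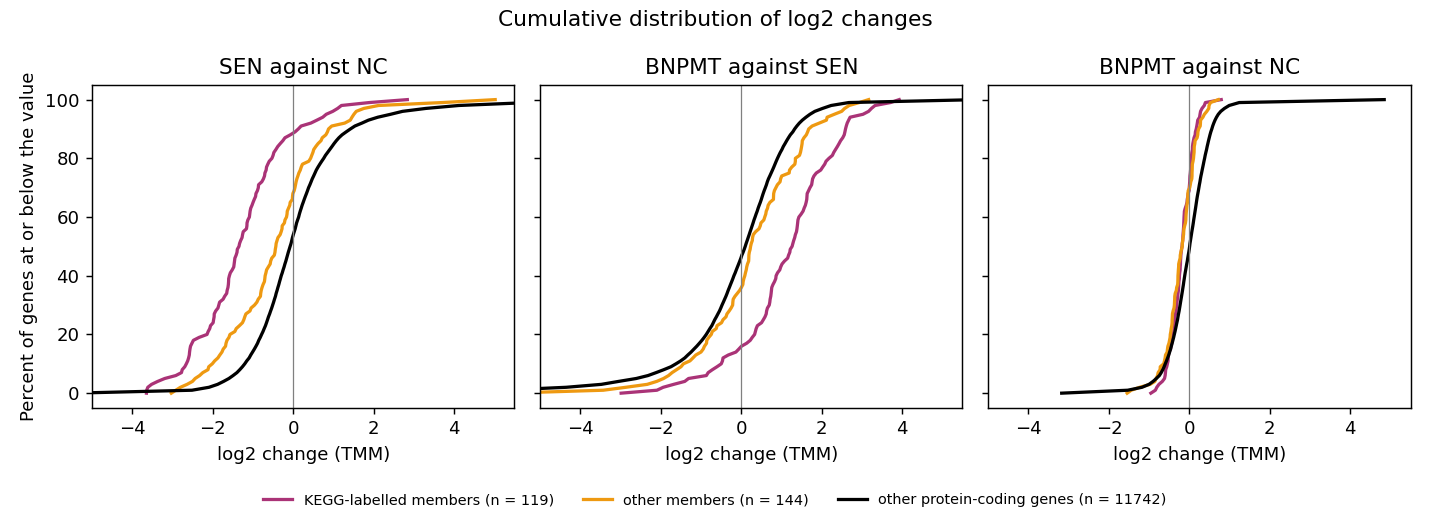
Cumulative distributions of the log2 change in the 3 comparisons, with the percent of genes at or below each value on the vertical axis. Lines are for labelled members, other members and other protein-coding genes at 2 CPM or more in a group. Values at the far left and those above 5.5 are outside the panels. In SEN against NC the labelled members (median -1.35) and the other members (median -0.43) lie to the left of the other genes, and in BNPMT against SEN they lie to the right, at medians of 1.26 and 0.23.

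On the TMM scale Zfp870 and Zfp763 had the lowest changes. Zfp870 was at 4.06, 3.93 and 4.37 CPM in NC, against 0.287, 0.0641 and 0.339 in SEN, then 4.40, 6.33 and 4.81 in BNPMT. The SEN values are near the floor of 3 counts (0.0781 to 0.0961 CPM in these libraries), SEN 2 lies below it, and no NC or BNPMT library comes near them. The log2 change in SEN against NC was -3.65 ± 0.31 (SE, adjusted p = 1.29e-07). Zfp763 had 3.68, 3.78 and 4.44 CPM in NC, against 0.260, 0.352 and 0.0848 in SEN, then 4.83, 4.39 and 4.46 in BNPMT. Its libraries separate in the same way, with a change of -3.65 ± 0.28 (adjusted p = 3.96e-08). Zfp799, the highest of this group in CPM, had 10.6, 10.3 and 10.6 CPM in NC, against 0.625, 0.673 and 0.594 in SEN, then 10.0, 8.83 and 8.20 in BNPMT. Its mean in NC was 16.6 times that in SEN, and it fell by 3.60 on the log2 scale (SE 0.14, adjusted p = 4.77e-11). Zfp113 went from 5.82 CPM ± 0.612 in NC to 0.339 ± 0.122 in SEN (log2 change -3.62, adjusted p = 6.04e-09). Zfp54 went from 2.76 CPM ± 0.290 to 0.185 ± 0.0699 (log2 change -3.45, adjusted p = 1.75e-07). Zfp563 went from 5.07 CPM ± 0.811 to 0.367 ± 0.0924 (log2 change -3.34, adjusted p = 5.57e-08). All 6 carry the KEGG label, and none of them had overlapping NC and SEN libraries. All 6 were below the 2 CPM limit in SEN, so their membership required a higher level in another group. Among the 176 members at the limit in all 3 groups the lowest change was -2.74.

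Rises were fewer, and the largest folds were those of Zfp711 and Zfp296, which reached the limit in SEN alone. Among the 176 members at the limit in all 3 groups the log2 changes ran from -2.74 to 2.98. Zfp711, an X-linked relative of the transcriptional activator Zfx, had 0.724, 1.43 and 1.81 CPM in NC, against 25.6, 40.3 and 30.9 in SEN, then 0.957, 0.712 and 0.762 in BNPMT. Its SEN mean was 24.4 times the NC mean, with a log2 change of 5.02 ± 0.22 (adjusted p = 1.33e-10), and the SEN libraries lie far above all others. Zfp296, a gene known from pluripotent cells, had 0.724, 0.988 and 1.39 CPM in NC, against 16.6, 13.8 and 13.7 in SEN, then 1.44, 1.14 and 2.05 in BNPMT. It rose by 4.26 ± 0.21 on the log2 scale (adjusted p = 3.98e-10). Zfp143, an activator that binds promoters of protein-coding and small nuclear RNA genes, had 13.6, 12.1 and 12.1 CPM in NC, against 71.6, 70.7 and 74.8 in SEN, then 14.7, 12.1 and 11.1 in BNPMT. The NC and BNPMT libraries of Zfp143 share a range that the SEN libraries exceed, and its change was 2.98 ± 0.09 (adjusted p = 2.74e-12). Zfp655 rose from 58.0 CPM ± 3.19 to 167 ± 21.8 (log2 change 1.98, adjusted p = 4.40e-10). Among KEGG-labelled members, Zfp819 went from 0.803 CPM ± 0.144 to 4.24 ± 0.743 (log2 change 2.84, adjusted p = 4.20e-08) and Zfp868 from 11.8 ± 0.822 to 35.4 ± 1.57 (log2 change 2.04, adjusted p = 2.24e-11). Zfp711, Zfp296 and Zfp819 reached the 2 CPM limit in SEN alone, so their membership required a higher level there.

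**Figure D3:**
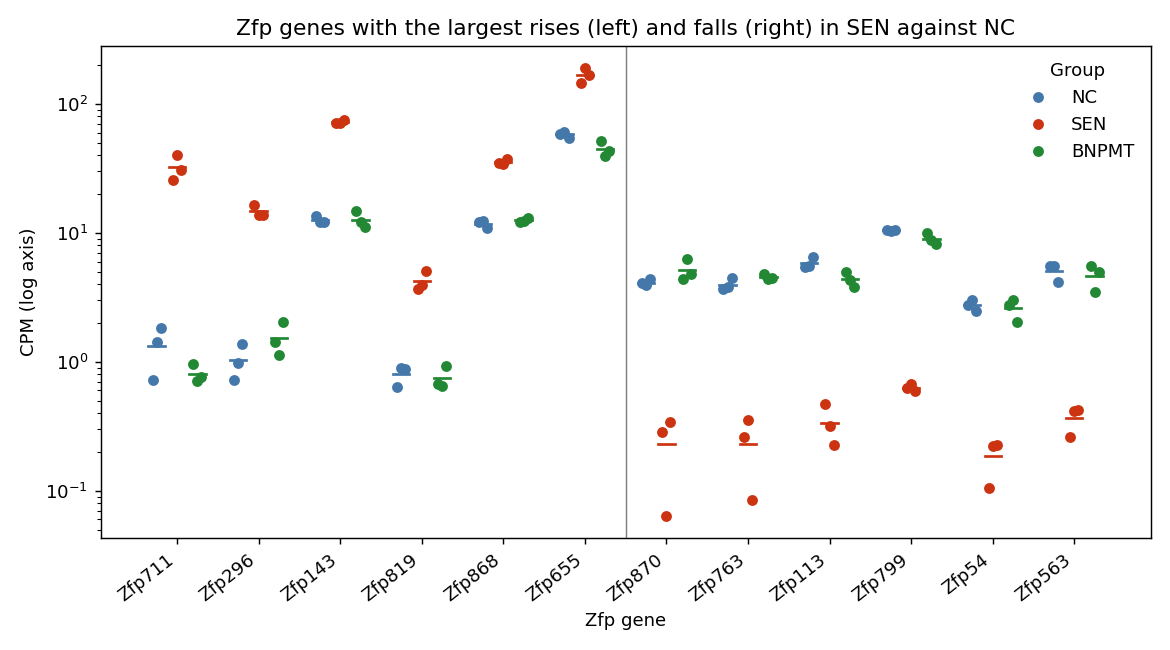
CPM in each library (points, log axis) and group means (lines) for the 6 largest rises and the 6 largest falls among members in SEN against NC, by group. The SEN points of Zfp711 (25.6 to 40.3 CPM) lie above all NC and BNPMT points of that gene, and those of Zfp799 (0.594 to 0.673 CPM) lie below all of them.

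Members with well-known roles changed in both directions. The imprinting regulators Zfp57 and Zfp445, both KRAB proteins that keep DNA methylation at imprinted loci, had lower levels in SEN. Zfp57 had 39.9, 42.2 and 41.8 CPM in NC, against 16.3, 17.0 and 16.4 in SEN, then 41.0, 36.5 and 32.2 in BNPMT, a log2 change in SEN of -0.87 ± 0.08 (adjusted p = 3.38e-07). Zfp445 had 47.0, 47.5 and 45.0 CPM in NC, against 14.3, 14.2 and 15.6 in SEN, then 44.7, 37.2 and 44.1 in BNPMT, a change of -1.21 ± 0.08 (adjusted p = 6.02e-09). For both genes every SEN library was below every other library. Zfp746, known as PARIS, a substrate of the ubiquitin ligase parkin, fell by 1.08 on the log2 scale, from 25.8 CPM ± 0.797 to 8.87 ± 0.444.

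Factors tied to matrix and mesenchymal cell fate changed in both directions. Zfp469, whose human counterpart is mutated in a brittle cornea syndrome and linked to collagen genes, had 106, 101 and 97.1 CPM in NC, against 26.6, 34.1 and 38.7 in SEN, then 43.4, 31.1 and 33.3 in BNPMT. SEN and BNPMT libraries overlap and both lie below NC, and the change in SEN was -1.16 ± 0.12 (adjusted p = 1.24e-06). Zfp521, which restrains osteoblast and adipocyte differentiation, fell by 0.81 on the log2 scale, from 54.5 CPM ± 0.739 to 22.7 ± 2.57. Zfp423, a factor of adipocyte commitment, rose by 1.52, from 1.22 CPM ± 0.420 to 2.52 ± 0.805, and reached the limit in SEN alone. Zfp638, an RNA-binding protein that acts in adipocyte differentiation, fell by 0.46, from 62.4 CPM ± 1.64 to 33.3 ± 2.84. Zfp277, which is known to repress the Cdkn2a locus together with Polycomb proteins, had 24.4, 23.6 and 24.5 CPM in NC, against 14.6, 12.7 and 13.1 in SEN, then 29.7, 36.3 and 38.9 in BNPMT. Its SEN libraries were lowest and its BNPMT libraries highest, and the change in SEN was -0.39 ± 0.10 (adjusted p = 0.00354).

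Several abundant members without the KEGG label rose. Zfp207 had 94.9, 102 and 103 CPM in NC, against 228, 235 and 238 in SEN, then 98.5, 90.9 and 98.2 in BNPMT, a log2 change in SEN of 1.68 ± 0.06 (adjusted p = 5.22e-12). Zfp281, a regulator of pluripotent cells that binds GC-rich promoters, rose by 1.24 ± 0.09 on the log2 scale, from 67.5 CPM ± 4.71 to 116 ± 13.2. Zfp131 rose by 1.42, from 34.6 CPM ± 2.09 to 67.5 ± 0.755, and Zfp217, known as a cancer-amplified factor, by 0.92, from 23.5 CPM ± 1.47 to 32.4 ± 1.21. Zfp326, part of a complex that couples transcription and splicing, rose by 0.72, with overlapping NC and SEN libraries in CPM. The ubiquitin ligases Zfp91 and Zfp598, the second of which marks collided ribosomes, rose by 0.49 each on the TMM scale, but not on total counts, where their changes of 0.04 and 0.03 did not pass (adjusted p = 0.602 and 0.595). Zfp703 (log2 change 0.46 on the TMM scale and 0.01 on total counts) and Zfp330 (0.43, and -0.03 on total counts) likewise rested on the scale. Zfp148, a GC-box-binding factor, fell by 0.45, and Zfp318 by 0.64. Zfp106 (0.07), Zfp346 (-0.15), Zfp385a (0.03), Zfp451 (0.09), Zfp503 (-0.08) and Zfp622 (0.01) did not pass the test on the TMM scale. On total counts all 6 passed as lower, at -0.60 to -0.36. With the length trends taken out Zfp106 (-0.11) and Zfp346 (-0.19) passed as lower, whereas without SEN 1 and BNPMT 1 Zfp106 passed as higher (0.11, adjusted p = 0.0114), so its direction rests on the setting.

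The second comparison, BNPMT against SEN, asks how senescent cells with the intervention differ from those without it. It shares the SEN libraries with the first, so the same members are given side by side and no overlap is counted. In BNPMT, 169 members were higher than in SEN and 61 were lower, against 40.7% and 39.9% of all genes tested and 45.7% and 39.1% of the other protein-coding genes under the same limit, and 33 did not pass. The median log2 change was 0.71, beside 0.02 over all genes. Rises of more than 2-fold were found for 105 members and falls of that size for 28, against 17.4% and 22.0% of all genes. In CPM, 201 members had all BNPMT libraries above all SEN libraries (57.3% of all genes did) and 36 below (25.2%).

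On total counts, where the median of all genes was 0.52, 204 members were higher and 35 lower, against 57.3% and 25.8% of all genes. With the length trends taken out, 188 were higher and 49 lower, against 46.3% and 36.0%. Without SEN 1 and BNPMT 1 the counts were 164 and 65, against 40.9% and 40.2%. Of the 176 members at the limit in all 3 groups, 96 were higher and 51 lower (54.5% and 29.0%, median 0.30), against 45.5% and 38.8% of the 10381 other genes at that limit (median 0.09). The shares of the 176 thus lay nearer to those of other genes than the shares of all 263 members did. Over all 277 tested Zfp genes, 176 were higher and 63 lower (median 0.71). The KEGG-labelled members were higher in 94 of 119 cases and lower in 15, with a median of 1.26. Those without the label were higher in 75 of 144 cases and lower in 46, with a median of 0.23. Both classes again include members below the limit in SEN, which were kept for a higher level in another group.

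Zfp870 had the largest rise in BNPMT against SEN, with a log2 change of 3.93 ± 0.31 (adjusted p = 4.20e-08). Its BNPMT libraries (4.40 to 6.33 CPM) all exceeded its NC libraries (3.93 to 4.37 CPM). Zfp763 (3.80), Zfp799 (3.33), Zfp54 (3.31), Zfp563 (3.17) and Zfp113 (3.16) followed, as did Zfp865 without the KEGG label (3.17). Like Zfp870, these genes were below the 2 CPM limit in SEN, so their membership required a higher level in another group. Among the 176 members at the limit in all 3 groups the highest change was 2.31. Zfp865 had 2.23, 2.25 and 2.17 CPM in NC, against 0.287, 0.288 and 0.311 in SEN, then 3.06, 3.85 and 4.46 in BNPMT, with no overlap between any 2 groups. The genes with the largest falls were Zfp711, at -5.80 ± 0.24 (adjusted p = 5.67e-11), and Zfp296, at -3.74 ± 0.20 (adjusted p = 7.13e-10). Zfp143 fell by 3.02, Zfp819 by 2.99 and Zfp655 by 2.40 on the log2 scale. Zfp185, a LIM-domain protein of the actin cytoskeleton despite its name, had 1.91, 2.15 and 1.62 CPM in NC, against 3.41, 4.58 and 3.93 in SEN, then 0.765, 0.912 and 0.667 in BNPMT. Its 3 groups do not overlap, and it fell by 2.85 in BNPMT against SEN. Zfp711, Zfp296, Zfp819 and Zfp185 reached the 2 CPM limit in SEN alone, so their membership required a higher level there. For the 176 members at the limit in all 3 groups the lowest change was -3.02.

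Of the members with known roles, Zfp57 rose by 0.64 ± 0.08 in BNPMT against SEN, Zfp445 by 1.01 ± 0.08, Zfp746 by 0.72 ± 0.08 and Zfp521 by 0.28 ± 0.08 on the log2 scale (adjusted p of 6.56e-06, 3.27e-08, 1.05e-06 and 0.00554). Zfp277 rose by 0.87 and Zfp830, a splicing-associated factor, by 0.71. Zfp622, a factor of large ribosomal subunit maturation, rose by 0.47. Zfp207 fell by 1.79, Zfp131 by 1.69, Zfp281 by 1.5, Zfp91 by 0.91 and Zfp598 by 0.86. Zfp469 fell by 0.38 on the TMM scale (adjusted p = 0.0126), but its change was 0.12 on total counts and 0.28 once length trends were removed. Zfp385a (-0.20), Zfp451 (-0.46), Zfp703 (-0.46) and Zfp330 (-0.21) passed on the TMM scale, yet their changes were above 0 on total counts (0.30, 0.05, 0.05 and 0.29). Zfp106, the highest member in CPM, was at -0.51 on the TMM scale, -0.00 on total counts and 0.04 once length trends were removed.

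The third comparison, BNPMT against NC, asks what differed from control cells under the intervention. In this comparison 95 members were lower, 17 were higher and 151 did not pass, against 26.5% lower and 26.3% higher of all genes tested and 30.8% in each direction of the other protein-coding genes. The median log2 change was -0.18, beside 0.00 over all genes. Lower changes of more than 2-fold were found for 5 members, against 3.60% of all genes, and higher ones for 0 members, against 2.67%. In CPM, 95 members had all BNPMT libraries below all NC libraries (26.4% of all genes) and 37 above (35.3%). With the length trends taken out, 53 were lower and 23 higher, against 22.1% and 24.0% of all genes, and the median was -0.03. On total counts 76 were lower and 21 higher, against 22.5% and 30.2%. Without SEN 1 and BNPMT 1, 117 were lower and 20 higher, against 30.8% and 29.7%. Of the 176 members at the limit in all 3 groups, 81 were lower and 13 higher (46.0% and 7.39%), against 32.4% and 31.8% of the 10381 other genes at that limit. Over all 277 tested Zfp genes, 95 were lower and 17 higher. The KEGG-labelled members were lower in 36 of 119 cases and higher in 3, and the others were lower in 59 of 144 and higher in 14.

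Zfp469 and Zfp704 were the lowest members against NC on the TMM scale, an order that other settings changed. Zfp469 had a log2 change of -1.55 ± 0.12 (adjusted p = 8.41e-07), which became -1.13 with the length trend taken out, where Zfp185 was lower at -1.22. Zfp704 had 19.9, 20.4 and 19.7 CPM in NC, against 9.43, 12.3 and 13.3 in SEN, then 12, 4.13 and 5.22 in BNPMT. BNPMT 1 was the highest of the BNPMT libraries for Zfp704 by a wide margin, and its change of -1.53 ± 0.27 (adjusted p = 0.000376) became -2.13 without SEN 1 and BNPMT 1. Zfp185 (-1.33), Zfp385b (-1.22), Zfp280b (-1.02) and Zfp597 (-0.96) were also lower. Zfp688, the member with the largest rise against NC on the TMM scale, had 6.90, 5.98 and 7.07 CPM in NC, against 2.21, 1.70 and 1.36 in SEN, then 10.8, 13.6 and 11.4 in BNPMT. Its groups do not overlap, and the change against NC was 0.79 ± 0.14 (adjusted p = 0.000467). Zfp865 (0.72), Zfp524 (0.53), Zfp637 (0.48), Zfp277 (0.48) and Zfp622 (0.48) were higher as well, of which Zfp524 did not pass once length trends were removed (0.21, adjusted p = 0.0937). Zfp711, Zfp296, Zfp143, Zfp870, Zfp763, Zfp54 and Zfp563 did not pass in this comparison (adjusted p of 0.0645, 0.105, 0.726, 0.263, 0.513, 0.583 and 0.467). A p that misses the threshold does not show equal levels.

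Gene length was compared because it moved with the libraries. Members had a median length of 4537 bases (quartiles 3124 and 7065), and the 11742 other protein-coding genes under the same limit had 3327.5 bases. In SEN against NC, 97 of the 131 members between 3124 and 7065 bases fell and 21 rose (74.0% and 16.0%), with a median of -1.01. Of 5154 other protein-coding genes tested in this length range, 42.7% fell and 36.2% rose, with a median of -0.08. Of the 4468 of these at 2 CPM or more in a group, 46.7% fell and 35.4% rose, with a median of -0.14. The 131 members include some below that limit in SEN, which had to be lower there. The length counts were not repeated over members at the limit in all groups. In BNPMT against SEN, 69.5% of the 131 members were higher and 21.4% lower, against 39.1% and 42.3% of the 5154 others. Of the 4468 others, 42.3% were higher and 42.1% lower. In BNPMT against NC, 38.9% of the 131 members were lower and 2.29% higher, against 36.2% and 14.4% of the 5154 others. Of the 4468 others, 39.9% were lower and 15.4% higher. In BNPMT against NC the share of lower calls was thus near that of other genes of like length. The differences in share were not tested.

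The shares were also taken in 4 length classes bounded by the members' quartiles. The other genes in these classes were not held to the CPM limit. The members again include those below the limit in SEN, which had to be lower there. In SEN against NC, 63.6%, 78.5%, 69.7% and 66.7% of members fell from the shortest to the longest class, against 39.9%, 44.3%, 41.1% and 35.7% of other protein-coding genes. In BNPMT against NC, 9.09%, 27.7%, 50% and 57.6% of members were lower from the shortest to the longest class, and so were 12.2%, 29.4%, 43.5% and 57.1% of the others. Set against the median of other genes in fine bins of length, 194 of the 263 members lay below it in SEN against NC, among them 104 of the 119 labelled ones. In BNPMT against SEN 188 members lay above it, and in BNPMT against NC 159 lay below and 104 above.

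**Figure D4:**
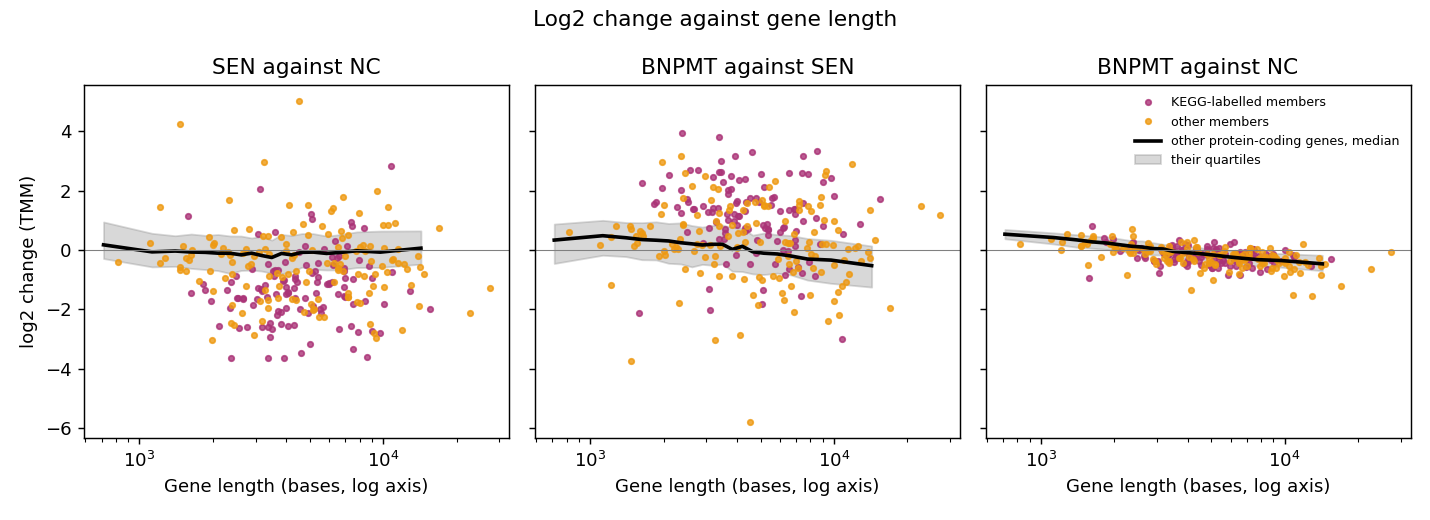
Log2 change against gene length (log axis) in the 3 comparisons, with members as points by KEGG label and the median and quartiles of other protein-coding genes in bins of length as a line and a band. In SEN against NC most members lie below the line (194 of 263), in BNPMT against SEN most lie above it (188 of 263), and in BNPMT against NC the points follow the line, which falls with length.

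Neighbouring Zfp genes were compared because KRAB genes lie in clusters. Members were joined into a run when at most 5 other protein-coding genes lay between them in the order of RefSeq's GRCr8 annotation, in which 262 members were placed. The 12 runs of 4 or more held 76 members, of which 54 carry the KEGG label. In SEN against NC 38.5% of all genes fell and 37.6% rose, and 43.5% and 36.3% of the other protein-coding genes under the CPM limit. Of these 76 members, 61 fell and 2 rose, with a median of -1.23. All the neighbour counts include members below the limit in SEN, which had to be lower there. In runs of 2 or 3 genes, 50 of 69 fell and 12 rose, with a median of -1.28. Among the 117 members standing alone, of which 31 are labelled, 71 fell and 28 rose, with a median of -0.46. Position and label go together here, and their separate parts were not tested.

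The run from Zfp799 to Zfp563 had the lowest median change of the 12. The promoters of Zfp870, Zfp472, Zfp763 and Zfp563 are those printed above, and Zfp799 and Zfp952 are without an entry. Its 6 members, Zfp799, Zfp870, Zfp472, Zfp952, Zfp763 and Zfp563, all carry the label, and their log2 changes in SEN ran from -3.65 to -2.07, with a median of -3.47. Zfp472 had 2.61, 3.43 and 3.10 CPM in NC, against 0.0781, 0.320 and 0.735 in SEN, then 3.40, 2.48 and 3.36 in BNPMT, and SEN 1 was at the floor of 3 counts. Zfp952 had 4.64, 4.0 and 5.06 CPM in NC, against 1.12, 0.481 and 0.735 in SEN, then 4.45, 3.76 and 4.46 in BNPMT. The SEN libraries of both genes lie below all others, and all 6 members rose in BNPMT against SEN, as did 40.7% of all genes. All 6 were below the 2 CPM limit in SEN, so their membership required a higher level in another group. In the longest run, from Zfp84 to Zfp146 with 11 members, all 11 fell in SEN, with changes of -2.57 to -0.22. Of all genes 38.5% fell. The run of Zfp866, Zfp869, Zfp964 and Zfp868 was mixed: Zfp866 fell by 3.18 and Zfp869 by 0.43, Zfp964 was at -0.50 and did not pass (adjusted p = 0.147), and Zfp868 rose by 2.04. Zfp472, Zfp952, Zfp866, Zfp869 and Zfp964 were singled out after their values were seen, for being in these runs. Recent duplicates share sequence, so reads could have been split or dropped between them in the authors' counting, and values of single cluster genes are uncertain to that extent.

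**Figure D5:**
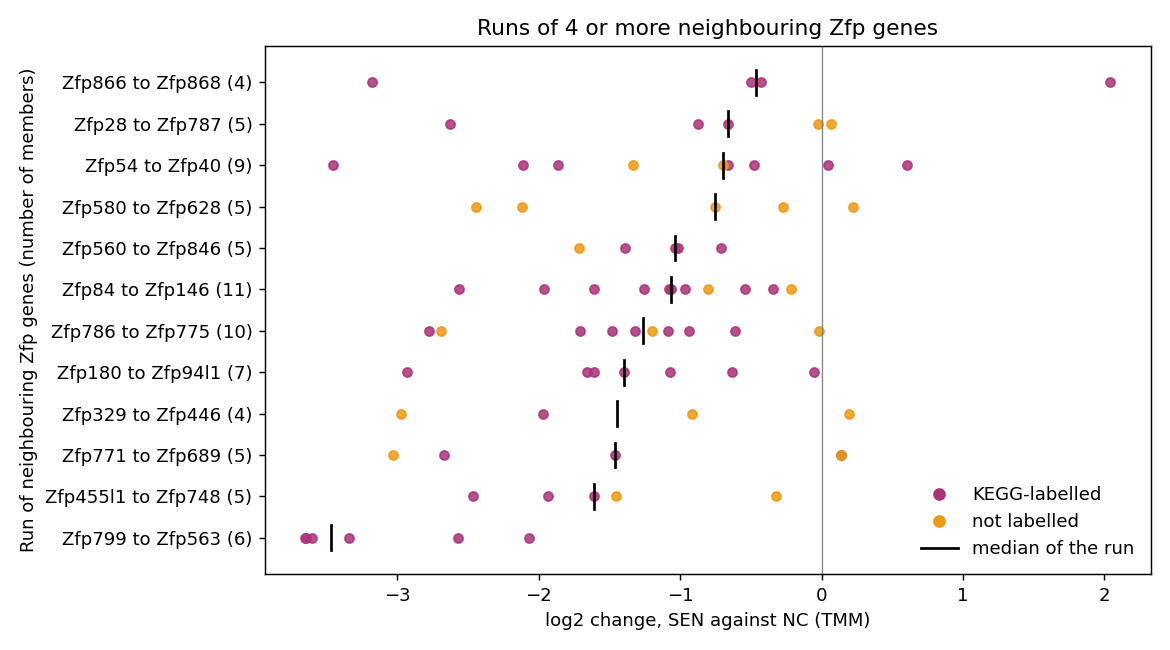
Log2 change in SEN against NC for each member of the 12 runs of 4 or more neighbouring Zfp genes, with 1 row per run, points by KEGG label and the median of the run as a bar. In the run from Zfp799 to Zfp563 all 6 points lie between -3.65 and -2.07, and in the run from Zfp866 to Zfp868 they lie on both sides of 0.

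Genes whose proteins act with KRAB zinc finger proteins changed in both directions. Of 36 tested genes of a list of KRAB corepressors and heterochromatin factors, 18 fell and 14 rose in SEN against NC, with a median of -0.15, and 17 fell and 16 rose in BNPMT against SEN. These are 50.0% and 38.9% in the first comparison, beside 38.5% and 37.6% of all genes, and 47.2% and 44.4% in the second, beside 39.9% and 40.7%. On total counts 22 fell and 7 rose in the first (61.1% and 19.4%, beside 56.9% and 24.5% of all genes), and 9 fell and 21 rose in the second (25% and 58.3%, beside 25.8% and 57.3%). In the first and second comparison the list as a whole lay near all genes, and its named members are given for their roles. In BNPMT against NC it did not, with 21 of the 36 lower, 4 higher and a median of -0.29. These are 58.3% and 11.1%, beside 26.5% and 26.3% of all genes. On total counts 52.8% were lower and 19.4% higher, beside 22.5% and 30.2%. With the length trends taken out the shares were 44.4% and 13.9%, beside 22.1% and 24.0%. The difference was not tested. Trim28, the KRAB corepressor itself, had 299 CPM ± 2.22 in NC, 404 ± 9.51 in SEN and 306 ± 10.3 in BNPMT, a log2 change in SEN of 0.89 (0.43 on total counts). Setdb1, the methyltransferase it recruits, had 51.3 CPM ± 1.75, 15.4 ± 0.406 and 46.3 ± 3.02, a change of -1.28. Other rises in SEN were those of Atf7ip2 (3.76), Dnmt3b (1.71) and Suv39h1 (1.29), which fell in BNPMT against SEN (-4.78, -2.95 and -1.58). Other falls in SEN were those of Uhrf1 (-1.21) and Smarcad1 (-1.18). On total counts Setdb1 (-1.74), Uhrf1 (-1.66) and Smarcad1 (-1.63) changed by more than Dnmt3b (1.26) and Suv39h1 (0.84). Atf7ip2 stayed under 1 CPM in each group mean.

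Related zinc finger genes with other names were few. Of 12 Znf genes under the same CPM limit, 10 fell and 0 rose in SEN against NC. In CPM, 12 of 12 had all SEN libraries below all NC libraries, as did 58.1% of all genes. Of 14 Zscan and Zkscan genes, 12 fell and 2 rose. Of 39 Zbtb genes, whose proteins pair zinc fingers with a BTB domain, 20 fell and 12 rose (51.3% and 30.8%). Among all genes 38.5% fell and 37.6% rose, and among the other protein-coding genes under the CPM limit 43.5% and 36.3%, so the Zbtb shares lay closer to the background than the 83.3% and 85.7% of falls in the Znf genes and in the Zscan and Zkscan genes. In BNPMT against SEN, 10 of the 12, 10 of the 14 and 18 of the 39 were higher, while 18 Zbtb genes were lower (23 higher and 8 lower on total counts), beside 40.7% higher and 39.9% lower of all genes. Another 44 KEGG-labelled protein-coding genes, which carry Znf, Zscan, Zkscan, Gm, Rgd or LOC names and in part are the same genes, included 33 that fell and 8 that rose (median -1.68). These families were not tested against the Zfp genes.

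Markers of other cell types moved between groups beside these changes. The 5 smooth muscle markers summed to 4459 to 4499 CPM in NC, against 1325 to 1499 in SEN, then 2550 to 2801 in BNPMT. That sum is mostly Acta2 and Tagln, which with Myh11 and Cnn1 were lowest in SEN. Des was at 28.4 CPM in NC, 28.4 in SEN and 54.9 in BNPMT. Of 6 macrophage markers, 4 were in the table and 2 reached 2 CPM in a group, and they summed to 11.2 to 12.6 CPM in NC, against 25.4 to 29.2 in SEN, then 16.3 to 18.4 in BNPMT. The rise of this sum in SEN was that of Cd68, at 0.464 CPM in NC, 22.6 in SEN and 0.527 in BNPMT, while Cd14 went the other way, at 11.4, 4.04 and 16.6. The lineage-defining Adgre1 had 1 count in all libraries. The 5 endothelial markers summed to 1.04 to 1.55 CPM in NC, against 4.95 to 5.38 in SEN, then 0.981 to 1.51 in BNPMT, with 1 of them at 2 CPM in a group. The rise of that sum in SEN was mostly that of Pecam1, at 0.0165 CPM in NC, 4.04 in SEN and 0.0254 in BNPMT. Kdr was at 0.107, 0.335 and 0.462, whereas Tek went the other way in SEN, at 0.962, 0.441 and 0.586. The 5 annulus and fibroblast markers were at 37825 to 39399 CPM in NC, against 37280 to 37647 in SEN, then 16894 to 19638 in BNPMT. That sum is mostly Col1a1, and others of the 5 moved in both directions in group means. Thy1 was at 506 CPM in NC, 186 in SEN and 617 in BNPMT, Pdgfra at 242, 106 and 222, and Dcn at 71.6, 181 and 69.5. The 2 erythroid markers in the table reached at most 0.0781 CPM in a library. The part of these cell types in the Zfp values was not tested.

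Close to the 2 CPM limit, the genes just inside were Zfp879, with a highest group mean of 2.06 CPM in BNPMT, Zfp597 with 2.04 CPM in SEN and Zfp853 with 2.09 CPM in SEN. Just outside were Zfp69 with 1.95 CPM in SEN, Zfp78 with 1.68 CPM in NC and Zfp82 with 1.61 CPM in NC. Members below 1 CPM numbered 2 to 3 in the NC libraries, 39 to 45 in the SEN libraries and 6 to 7 in the BNPMT libraries. The rule kept 72 members that reached the limit in NC and BNPMT but not in SEN, so these counts follow in part from the rule. The share of all genes below 1 CPM was not counted. In each library 0 members lacked counts.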

How the data were processed

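Poly(A) RNA of 9 rat nucleus pulposus libraries was compared, with 3 libraries in each of the groups NC, SEN and BNPMT, which come from the titles. The submitters' processing notes list fastp, HISAT2, HTSeq and mRatBN7.2, without versions or roles. No source used here gives the annotation or the strandedness of counting. Reads of overlapping and antisense genes cannot be told apart. The authors deposited whole-number counts per gene, with an FPKM table and FPKM files per sample. Each deposited FPKM equals the count over gene length and library total (largest relative difference 6.66e-16), which gave the gene lengths. Deposited pathway labels include the KEGG label used for classes. Planned classes by protein domain were not made, and the label was taken up in their place after the data were seen, as were the neighbour runs and the 4 promoter motifs.

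The count test was edgeR 4.0.16 under R 4.3.3 (TMM factors, filterByExpr, quasi-likelihood F test with group as the only term over the 9 libraries, Benjamini-Hochberg adjustment over 14956 genes, threshold 0.05). Log2 changes are on the TMM scale unless said otherwise, and CPM values are per total count. A floor of 3 counts is worth 0.0715 to 0.0961 CPM, which covers counting error only. On data simulated from these libraries, the fit recovered 95% of 100 genes changed 2-fold and 89% of 100 changed 1.5-fold in SEN against NC (12261 genes, 11 false calls). It recovered 94% and 77% in BNPMT against SEN (12438 genes, 12 false calls) and 94% and 84% in BNPMT against NC (12261 genes, 8 false calls). The simulation changed 100 genes per fold, whereas 37.6% of all genes were called higher and 38.5% lower in SEN against NC. With so few changed genes it does not test the choice of scale. Alternatives were DESeq2 1.42.0, limma 3.58.1 on log2(FPKM + 0.1), total counts or DESeq2 size factors as the scale, other filters and CPM limits, a 1.2-fold minimum, only the 2 compared groups, a replicate block, a loess length trend taken out per library, and leaving out libraries.

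Named genes were 27 genes fixed for their known roles (25 are members), the 6 largest rises and 6 largest falls in each comparison among called members without overlap, the 6 with the largest smaller change among those called both ways, the 5 highest in CPM and in FPKM, and 3 on each side of the limit. The members and lists were chosen with earlier results of these data known. The planned count of members called in opposite directions is not reported, since both comparisons use the SEN libraries. Replicate numbers recur in the titles, but same-numbered libraries did not deviate together (correlations of -0.18 to 0.04), so they were not paired. No 2 libraries were duplicates (within groups, chi-square over its degrees of freedom was 3.41 to 31.6). All 263 members matched the RefSeq gene table on GRCr8, which was used for gene order only, since its build is not that of the counts; promoters are from RefSeq on GRCr8, with an entry for 215 members.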

Additional observations from a re-analysis of the deposited data

How the results depend on the processing

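Of 24 alternative settings, 20 refit the model and 4 changed the choice of members, of which the limit of 2 CPM as a mean over the 9 libraries was chosen after seeing the data. In SEN against NC the members higher numbered 26 on total counts and 26 with limma on log2(FPKM + 0.1), against 42. Of all genes, 24.5% were higher on total counts, 24.6% with limma and 37.6% in the main fit. FPKM is per library total, so both settings share a scale. The members lower numbered 109 with the limit met in all groups, against 183. Of other protein-coding genes at that limit 43.6% were lower. The median log2 change of Zfp members in SEN against NC, -0.861, became -1.314 on total counts, -0.944 with the length trend taken out, -1.194 with limma, -0.520 with the limit in all groups and -0.768 with a limit of 5 CPM. In BNPMT against SEN the members higher numbered 96 with the limit in all groups, and those lower 35 on total counts and 37 with limma. Of other protein-coding genes at the limit in all groups 45.5% were higher. Of all genes, 25.8% were lower on total counts and 25.6% with limma. The members' median of 0.714 became 1.217 on total counts, 0.922 with the length trend taken out, 1.116 with limma and 0.296 with the limit in all groups. In BNPMT against NC a 1.2-fold minimum left 6 higher and 44 lower (13.8% and 14.1% of all genes), and taking out the length trend left 53 lower and a median of -0.029. Fewer members enter under a limit in all groups by construction, and the cause of the other shifts was not tested.

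Leaving out each library in turn gave 41 to 43 higher and 179 to 186 lower in SEN against NC (medians -0.905 to -0.815), and 163 to 173 higher and 57 to 65 lower in BNPMT against SEN (medians 0.679 to 0.750). In BNPMT against NC it gave 72 to 104 lower, medians of -0.231 to -0.162, and 9 to 19 higher, where the 17 became 9 without NC 2, 9 without BNPMT 3 and 11 without BNPMT 2. With a replicate block, 42 members were higher and 184 lower in SEN against NC, 168 and 60 in BNPMT against SEN, and 15 and 83 in BNPMT against NC. The same numbers share only a name, so the block is not a pairing. Shares of all genes were not taken for these refits. In the main fit they were 37.6% higher and 38.5% lower in SEN against NC. They were 40.7% and 39.9% in BNPMT against SEN, and 26.3% and 26.5% in BNPMT against NC.

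Of 122 called changes of 51 named genes, 2317 of 2440 refits kept direction and call. Direction turned with the length trend taken out for Zfp106 (0.041) and Zfp469 (0.280) in BNPMT against SEN and for Zfp148 (0.020), Zfp281 (0.042), Zfp445 (0.146), Zfp638 (0.055), Zfp706 (-0.245) and Zfp799 (0.057) in BNPMT against NC. On total counts and with limma it turned for Zfp330 in SEN against NC (-0.025 and -0.024), and in BNPMT against SEN for Zfp330 (0.291 and 0.286), Zfp385a (0.303 and 0.302), Zfp451 (0.046 and 0.046), Zfp469 (0.120 and 0.114) and Zfp703 (0.048 and 0.048). Depth limits the lowest members: SEN levels of Zfp870, Zfp763 and Zfp472 rest on counts near the floor of 3.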
